A study of Mus musculus with 4 samples.

Results

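A set of 10 genes known for basophils and mast cells was followed through single-cell transcriptomes of mouse hematopoietic stem and progenitor cells (HSPCs). The genes were Mcpt8, Prss34, Cpa3, Fcer1a, Ms4a2, Hdc, Cd200r3, Csrp3, Alox5 and Cyp11a1. They were found by symbol, each matched 1 row of the deposited gene list, and together they make 10 of 28692 genes. HSPCs were Lin- Sca1+ cKit+ Flt3- bone marrow cells of male C57BL/6-CD45.2 mice, sorted by flow cytometry and captured with the 10x Genomics 3′ chemistry, which counts transcripts by unique molecular identifiers (UMIs). There were 2 pools of young mice, 2 to 3 months old, and 2 pools of aged mice, 17 to 18 months old, each pool holding 2 or 3 animals, with no transgene or treatment given for either group. Young A and aged A were processed at the HalioDX facility and young B and aged B at the TGML facility. Groups were taken from the sample titles. The free-text descriptions of young B and aged A name the other age, whereas their titles and sources agree. Mice of a pool were mixed before capture, so the pool is the replicate and values of single animals cannot be had.

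Basophils and mast cells are granulocytes that carry the high-affinity receptor for IgE on their surface. Antigen that cross-links receptor-bound IgE makes them release stored histamine, proteases and proteoglycans, and make leukotrienes and cytokines. Both lineages arise in the bone marrow. Among the 10 genes, Mcpt8 and Prss34 encode serine proteases of basophil granules and Cpa3 encodes the carboxypeptidase of mast cell granules. Fcer1a and Ms4a2 encode the α and β chains of the IgE receptor. Hdc makes histamine from histidine, Alox5 starts leukotriene synthesis from arachidonate, and Cyp11a1 cleaves the side chain of cholesterol at the start of steroid synthesis. Cd200r3 is an activating receptor of basophils and mast cells, and Csrp3 encodes a LIM-domain protein best known from striated muscle.

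The bases upstream of 3 members are shown, a granule protease of each kind and a chain of the IgE receptor. These genes were high in the same cells, as were the other members, and all 3 held the GATA letters given below. Mcpt8, the other basophil protease, held 0 matches. Each sequence is the 250 bases before the RefSeq start site, on the gene's strand (build GRCm38.p6), in lower case with the GATA letters AGATAA, or TTATCT for the other strand, in capitals. Cpa3 lies on the minus strand (chr3:20242182-20242431), Prss34 on the plus strand (chr17:25298144-25298393) and Ms4a2 on the minus strand (chr19:11623720-11623969).
Cpa3: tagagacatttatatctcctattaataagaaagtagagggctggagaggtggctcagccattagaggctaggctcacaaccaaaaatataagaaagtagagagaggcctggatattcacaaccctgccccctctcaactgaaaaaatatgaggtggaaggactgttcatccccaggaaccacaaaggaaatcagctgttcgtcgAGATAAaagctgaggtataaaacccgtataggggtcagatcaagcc
Prss34: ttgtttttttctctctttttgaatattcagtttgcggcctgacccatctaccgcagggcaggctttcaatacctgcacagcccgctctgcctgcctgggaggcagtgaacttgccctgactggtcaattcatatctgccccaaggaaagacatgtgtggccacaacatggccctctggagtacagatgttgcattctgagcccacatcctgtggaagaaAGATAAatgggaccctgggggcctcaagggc
Ms4a2: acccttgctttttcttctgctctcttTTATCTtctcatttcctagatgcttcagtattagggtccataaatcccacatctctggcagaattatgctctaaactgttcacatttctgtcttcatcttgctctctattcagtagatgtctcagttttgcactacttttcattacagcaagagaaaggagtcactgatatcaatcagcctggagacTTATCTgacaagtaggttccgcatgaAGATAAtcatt
The first base of the match lay 46 bases before the start in Cpa3 and 31 bases in Prss34, and Ms4a2 held 3 matches, at 224, 37 and 11 bases. All 10 members matched a RefSeq window, and for Csrp3 and Cyp11a1, which have 2, the first was used. AGATAA on either strand was found in the first window of 5 of the 10 members, Fcer1a and Cd200r3 being the other 2, and in 9.99% of all 32851 windows of this length. The letters GAGGAA (or TTCCTC) were found in 5 of 10 members and in 23.3% of all windows, and TTNCNNAA (or TTNNGNAA) in 3 of 10 and in 36.8%. These are letter matches in a fixed window, not bound sites.

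After droplet barcodes whose log UMI count lay more than 2 SD from the pool mean were left out, 14915 of 15566 cells remained, 5189 in young A, 2244 in young B, 3328 in aged A and 4154 in aged B. Median depth ranged from 5674 to 6719 UMIs per cell and the pools held 16399999 to 36446168 UMIs. The paper reports more reads per cell for young B and aged A than for young A and aged B. Read depth thus differed between the ages within each facility, in opposite directions, and its part in the results was not tested. Of the barcode sequences, 115 occurred in more than 1 pool, covering 216 kept cells. Clustering with the 10 genes left out of the clustered genes gave 15 clusters, and 1 of them, with 196 cells, was named pMast-like. In it 16 of 20 basophil and mast cell markers other than the members passed the naming limits. The members were part of the naming list, and the 7 list genes among the cluster's 10 highest genes were all members. Mature mast cell genes were nearly absent: Cma1 and Tpsb2, proteases of connective tissue mast cells, had 2 and 0 UMIs in all pMast-like cells. Eosinophil genes were also present there, 6 of 8 being higher than outside, and 2 of 8 at 0. Their summed level was 2269 CPM in young A, 4585 in young B, 2195 in aged A and 0 in aged B. Most of it was Prg2, a granule protein of eosinophils, and it came from 3, 2, 1 and 0 cells with at least 10 Prg2 UMIs. Neutrophil list genes summed to 13504, 13275, 11527 and 16458 CPM in the same cells. The part of these genes in the results was not tested beyond leaving out the Prg2 cells.

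All 10 members were highest in the pMast-like cluster, which is 196 of 14915 cells. Prss34 reached 48349 CPM (UMIs scaled to the same total in each sum) there and Mcpt8 34711 CPM, so these 2 proteases alone took between 7.02% (aged A) and 11.1% (aged B) of all UMIs of the cluster in a pool. Cpa3 was next at 4215 CPM, followed by Fcer1a at 1531, Ms4a2 at 966, Csrp3 at 727, Cd200r3 at 504, Hdc at 477, Cyp11a1 at 277 and Alox5 at 202 CPM. These are levels of a 3′ count, in which each molecule counts once whatever its length. Clusters and genes were measured in the same cells, and the members helped to name this cluster. The order of clusters is thus a description and carries no test.

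**Figure D1:**
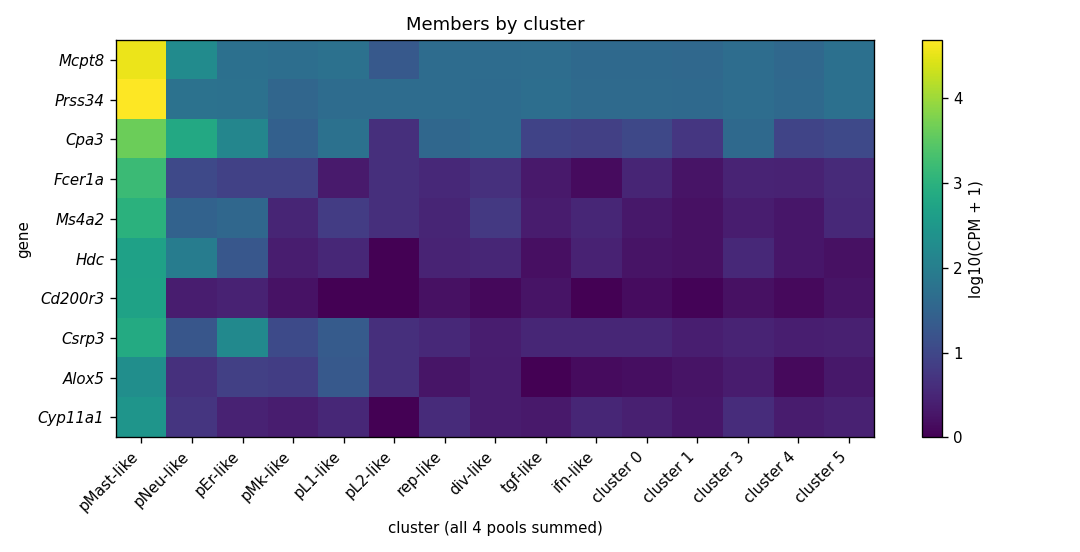
Level of each member (rows) in each of the 15 clusters (columns), with the cells of all 4 pools summed, as the colour of log10(CPM + 1). The pMast-like column is the brightest for every gene. Mcpt8 and Prss34 are near 40 to 50 CPM in nearly all other columns, while Cpa3, Hdc, Ms4a2 and Csrp3 stand out in the pNeu-like or pEr-like columns.

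The members split by how much of their signal came from outside that cluster. Prss34 had 94.1% of its UMIs in pMast-like cells, Cd200r3 93.2%, Mcpt8 91.5% and Fcer1a 89.9%. Ms4a2 had 78.8%, Cyp11a1 68.7%, Alox5 68.2%, Hdc 61.5%, Cpa3 59.4% and Csrp3 54.0%. Cpa3, Hdc, Csrp3 and Ms4a2 had most of their other UMIs in 2 other primed clusters, the pNeu-like cluster (251 cells, led by Elane and Mpo) and the pEr-like cluster (471 cells, led by Car1 and Klf1).

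Cpa3 was the clearest case in the pNeu-like cluster. It stood at 646 CPM in young A, 567 in young B, 828 in aged A and 618 in aged B, and these cells held 17.5% of all its UMIs. The 4 pools lay close together, and 49.6% of pNeu-like cells had a Cpa3 UMI once each cell was thinned to 3000 UMIs (63.7% unthinned). Hdc followed the same pattern, at 91.8, 81.3, 108 and 72.8 CPM in young A, young B, aged A and aged B pNeu-like cells, with 21.7% of its UMIs there. Mcpt8 was also above its level in the remaining clusters other than pMast-like, at 169, 90.6, 215 and 240 CPM. Prss34 in the same cells was at 74.9, 9.29, 78.3 and 11.7 CPM, against 76.5, 25.3, 58.9 and 9.70 CPM in unprimed cells. Aged B held 34 pNeu-like cells. Over its primed clusters other than pMast-like, a single cell held up to 42 of 116 Mcpt8 UMIs and up to 78 of 305 Cpa3 UMIs.

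Csrp3 was the highest member in the pEr-like cluster in 3 of the 4 pools, and lay below Cpa3 in aged A. It stood at 156 CPM in young A, 190 in young B, 161 in aged A and 211 in aged B, which was 32.5% of all its UMIs, against 22.0, 6.97, 16.3 and 11.7 CPM in the pNeu-like cells. Cpa3 was lower in the pEr-like cluster than in the pNeu-like cells, at 130, 163, 182 and 86.7 CPM. Ms4a2 stood at 36.3, 35.3, 52.9 and 8.89 CPM in the pEr-like cells of young A, young B, aged A and aged B, the last pool apart from the other 3. Its partner in the receptor, Fcer1a, was at 7.08 CPM over all pEr-like cells, against 36.2 CPM for Ms4a2. Alox5 stood at 19.6 CPM, from 17 UMIs, in the pL1-like cluster (131 cells, led by Cxcr6 and Il7r), against 6.83 CPM in the pEr-like and 3.53 CPM in the pNeu-like cells.

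Inside the pMast-like cluster the members were not seen equally often. Cpa3 was seen in 99.5% of the 196 cells, Mcpt8 in 96.9%, Ms4a2 in 96.4%, Csrp3 in 93.4%, and Hdc and Prss34 in 92.3% each. Fcer1a was seen in 76.0%, Cyp11a1 in 75.0%, Alox5 in 69.4% and Cd200r3 in 68.4%. In the 47 cells with no Fcer1a UMI, Mcpt8 stood at 12342 CPM, Prss34 at 16413 and Cd200r3 at 135 CPM, against 42834, 59946 and 638 CPM in the 149 cells with one. Ms4a2, Hdc and Csrp3 were alike in both sets, at 912 and 986 CPM, 423 and 496 CPM, and 754 and 716 CPM. The cells without Fcer1a, of which 40 came from young A, were not shallower, with a median of 8155 UMIs per cell against 6712.

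Outside the primed clusters lay 13531 cells in 9 clusters: 5 unnamed, and 1 each led by replication, division, interferon and immediate-early genes. Mcpt8 and Prss34 were found there at low level in every cluster. Over the 4 pools together Mcpt8 ran only from 37.9 to 53.7 CPM across these 9 clusters and Prss34 from 38.1 to 52.1 CPM, and 11.1% to 14.8% and 10.8% to 14.7% of cells had a UMI after thinning to 3000 UMIs. The pEr-like cells had 15.3% for Mcpt8 and 17.5% for Prss34 after thinning, the pMk-like cells (megakaryocyte genes) 12.8% and 9.09%, and the pL1-like cells 14.2% and 12.5%. The pEr-like and pL1-like clusters were also higher in 3 or more genes of the pMast marker list, and the pMk-like cluster was not. The unprimed shares lay within or below the range of these 3 clusters. Against the pMk-like cells alone, they lay on both sides for Mcpt8 and above for Prss34. With the pEr-like and pL1-like clusters raised in that list, the range cannot decide whether the unprimed UMIs are expression. Neither expression nor free RNA as their source was tested. Unthinned, 23.6% of the unprimed cells had a Mcpt8 UMI and 24.2% a Prss34 UMI, at a median depth of 4947 to 11723 UMIs per cell across the 9 clusters.

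The unprimed level of Mcpt8 differed more between pools than between clusters. This was less clear for Prss34, which ran from 10.8 CPM (4 UMIs, interferon cluster) to 36.2 CPM (cluster 5) within young B. Mcpt8 stood at 74.7 CPM in young A, 23.7 in young B, 61.1 in aged A and 9.35 in aged B, which is 0.250%, 0.0522%, 0.207% and 0.0203% of its level in the pMast-like cells of the same pool. Within young A it ran from 67.9 to 88.3 CPM across the 9 clusters, and within aged B from 7.59 to 12.8 CPM. Both HalioDX pools were thus above both TGML pools, at each age. The Prss34 UMIs came at 102, 107, 96.4 and 104 per 100 Mcpt8 UMIs in the unprimed cells of young A, young B, aged A and aged B, and at 145, 128, 138 and 141 per 100 in the pMast-like cells. The amounts of free RNA in the droplets were not measured, and their part in these values was not tested.

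Cpa3 had another pattern outside the primed clusters. It ran from 4.62 CPM in cluster 1 (led by Cldn5 and Ramp2) to 42.9 CPM in the dividing cells, with 38.3 CPM in cluster 3 (led by Flt3 and Wfdc17) and 35.4 CPM in the replicating cells. Within young A it ran from 8.58 CPM in cluster 1 to 57.4 CPM in cluster 3, and within aged B from 0.577 to 15.2 CPM, so the clusters differed within pools. Of the 13531 cells, 60 had 5 or more Cpa3 UMIs, up to 53, against 11 for Mcpt8 and 7 for Prss34. After thinning, 7.15% of replicating cells, 6.78% of dividing cells and 5.23% of cluster 3 had a Cpa3 UMI, against 1.58% of cluster 1. In other primed lineages the share was 5.39% in pMk-like cells (26.3 CPM) and 10.0% in pL1-like cells (55.5 CPM). This range is not a level without expression, since the pL1-like cluster was itself higher in genes of the pMast marker list. It cannot decide whether the unprimed Cpa3 UMIs are expression, which was not tested. Aged A stood apart in the dividing cells (88 cells), at 178 CPM against 45.6 CPM in young B. In young A the dividing cells were at 32.2 CPM, below cluster 3. The aged A dividing cells were also that pool's highest unprimed cluster for Ms4a2 (34.4 CPM), Hdc (12.6 CPM), Fcer1a (10.3 CPM), Alox5 and Cd200r3. They were not its highest for Mcpt8, Prss34, Csrp3 and Cyp11a1.

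**Figure D2:**
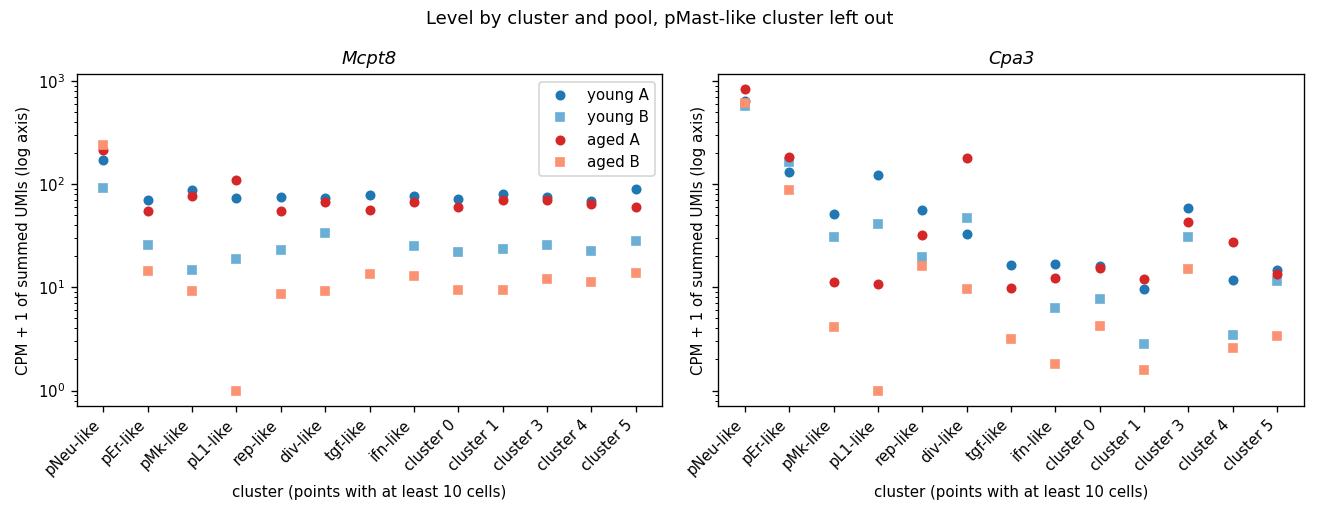
Level of Mcpt8 (left) and Cpa3 (right) in each cluster other than pMast-like and pL2-like, as CPM + 1 on a log axis, with 1 point per pool (blue young, red aged, circles HalioDX, squares TGML) where the pool had at least 10 cells in the cluster. Mcpt8 is flat across the unprimed clusters at a height that differs between pools, and Cpa3 changes from cluster to cluster within a pool.

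The other 7 members were rare in unprimed cells. Fcer1a had a UMI in 1.21% of them, Csrp3 in 1.28%, Cyp11a1 in 1.15%, Ms4a2 in 0.843%, Hdc in 0.732%, Alox5 in 0.495% and Cd200r3 in 0.288%. Most of these cells held a single UMI of the gene: for Fcer1a, 157 cells held 1 UMI, 5 held 2 to 4 and 2 held 5 or more. Cyp11a1 kept 27.3% of its UMIs outside the primed clusters, at 2.38 CPM in young A, 1.96 in young B, 1.73 in aged A and 1.13 in aged B, the 2 facilities being closer for it than for the proteases. Its unprimed level was 0.403% to 0.848% of that in pMast-like cells, against 0.0203% to 0.250% for Mcpt8.

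Cells were also counted by how many of the 10 genes they showed. At least 1 member was seen in 69.1% of cells in young A, 38.2% in young B, 59.3% in aged A and 19.8% in aged B. At least 3 were seen in 8.31% (95% exact binomial interval 7.57 to 9.09), 3.79% (3.04 to 4.66), 5.29% (4.55 to 6.10) and 1.23% (0.915 to 1.61). At least 5 were seen in 2.54%, 1.83%, 1.17% and 0.626%, and at least 8 in 1.52%, 1.52%, 0.721% and 0.530%. With few members the pools split by facility, and from 4 members on both aged pools lay below both young pools. For 3 or more members the aged mean minus the young mean was -2.79 percentage points, with an exact permutation p of 0.667 (two-sided, 2 against 2 pools, for which 0.333 is the smallest possible). For 4 or more, it was -1.60 points with p = 0.333, the smallest an exact permutation can give here. Cells with at least 3 members numbered 431, 85, 176 and 51 in young A, young B, aged A and aged B. Over the 4 pools, 195 of them were pMast-like, 120 pEr-like and 119 pNeu-like. Many lay outside the primed clusters: 84 were replicating cells, 51 were in cluster 0, 49 were dividing cells and 41 were in cluster 3. Each other unprimed cluster held 22 or fewer. These counts are unthinned, and the replicating and dividing cells were the deepest unprimed clusters, with medians of 9134.5 and 11723 UMIs per cell. After thinning, cells with at least 3 members made 3.35%, 2.01%, 2.25% and 0.723% of young A, young B, aged A and aged B. Thinned cells were not counted by cluster, so the part of depth in the cluster counts was not tested. Intervals cover counting error only.

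**Figure D3:**
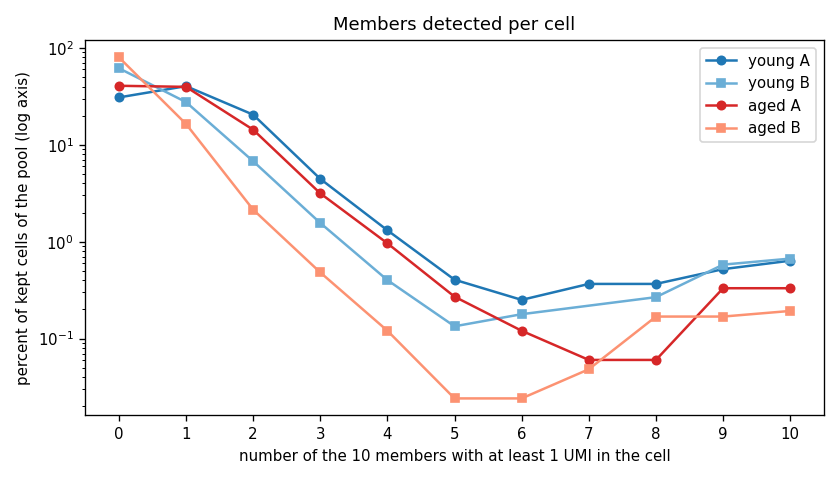
Percent of kept cells in each pool (log axis) by the exact number of the 10 members with at least 1 UMI in the cell, with 1 line per pool (blue young, red aged, circles HalioDX, squares TGML). Between 2 and 4 members both HalioDX lines lie above both TGML lines, and at 9 and 10 members both young lines lie above both aged lines.

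Sums over a pool cannot tell fewer cells of a type from less RNA per cell. The first comparison by age took all kept cells of a pool together and asked whether the genes were lower in aged HSPCs. Cd200r3 fell, to 34.7% of its young level (log2 fold change -1.53 ± 0.20 (SE), edgeR quasi-likelihood test with facility as a block, Benjamini-Hochberg adjusted p = 0.0366). It stood at 11.2 CPM in young A and 12.0 in young B, against 4.62 in aged A and 3.76 in aged B. With any of the 4 pools left out, in a fit without the block, Cd200r3 was not called, at log2 fold changes of -1.70 to -1.39 and adjusted p of 0.113 to 0.559 by edgeR, nor after thinning (adjusted p = 0.0523). It was the only member of 10 called, beside 0.428% of 13555 genes tested that were called lower and 2.03% called in either direction. A second tool called more: DESeq2 on the same sums called 8 of 10 members lower, all but Fcer1a and Alox5, beside 1.27% of all genes. Without the filter on low counts edgeR called 9 of 10, beside 1.1% of genes, and without the facility in the model it called none, beside 0% of genes. At unadjusted p under 0.05, edgeR passed 9 of 10 members, all but Fcer1a, beside 2175 of the 13555 genes tested.

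Mcpt8 was at 771 CPM in young A, 890 in young B, 353 in aged A and 240 in aged B (-1.56 ± 0.26 (SE), adjusted p = 0.0611 by edgeR). Prss34 was at 1083, 1129, 457 and 331 CPM in the same order (-1.56 ± 0.24 (SE), adjusted p = 0.0543 by edgeR). For both, each aged pool was below each young pool, and the 2 facilities gave the same direction. Cyp11a1 was at 8.89, 7.5, 4.04 and 2.55 CPM (-1.39 ± 0.22 (SE), adjusted p = 0.0555 by edgeR). Csrp3, Hdc and Cpa3 likewise had each aged value under each young value, with log2 fold changes of -1.39, -1.27 and -1.04 and adjusted p of 0.102 to 0.127 by edgeR. In all, 7 of 10 members did not overlap between the ages and were lower in aged pools, beside 13.6% of all genes tested. Ms4a2 was at 29.8, 15.1, 19.8 and 3.82 CPM and Alox5 at 7.22, 3.66, 4.04 and 1.38 CPM, each lower with age at both facilities but with overlapping ages. Fcer1a was not lower at both facilities. It was at 23.5 CPM in young A and 24.5 in aged A, and at 36.9 in young B and 18.9 in aged B (-0.50 ± 0.25 (SE), adjusted p = 0.439 by edgeR). The median log2 fold change of the 10 members was -1.35, and that of all genes tested 0.01.

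**Figure D4:**
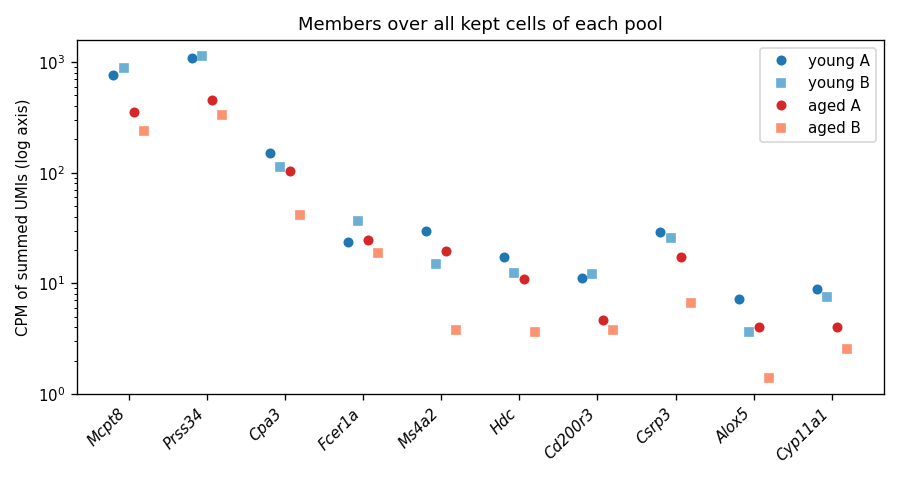
CPM of each member over all kept cells of each pool (log axis), with 1 point per pool (blue young, red aged, circles HalioDX, squares TGML). Both aged points lie below both young points for 7 members, among them Mcpt8, Prss34 and Cd200r3, and Fcer1a, Ms4a2 and Alox5 overlap.

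The pMast-like cluster held a smaller share of both aged pools than of either young pool. It held 104 cells or 2.00% of young A (interval 1.64 to 2.42) and 39 cells or 1.74% of young B (1.24 to 2.37), against 29 cells or 0.871% of aged A (0.584 to 1.25) and 24 cells or 0.578% of aged B (0.371 to 0.858). The aged mean was 0.725% and the young mean 1.87%, a difference of -1.15 points, with p = 0.333 by an exact permutation test, the smallest possible. Other clusters moved too: cluster 3 and the replicating and dividing cells also held less of both aged pools, by -5.13, -7.31 and -1.77 points. The unnamed clusters 0 and 1 and the interferon, immediate-early and pL2-like clusters held more of both. The share of cells with a UMI was lower with age at both facilities for 9 of 10 members, Fcer1a being the exception. No share over all genes was set beside this count. An exact permutation test (2 against 2 pools) gave p = 0.667 for Mcpt8, Prss34 and Cpa3, whose ages overlapped. The exact permutation test gave p = 0.333, the smallest possible, for Ms4a2, Hdc, Cd200r3, Csrp3, Alox5 and Cyp11a1. In each pool most cells with a Mcpt8 or Prss34 UMI lay outside the primed clusters. Whether those UMIs are expression was not tested. A Csrp3 UMI was in 6.19% and 4.10% of young A and young B cells and in 3.79% and 1.64% of aged A and aged B cells. A Fcer1a UMI was in 2.45%, 2.18%, 3.37% and 1.61% in the same order. 

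Inside the pMast-like cluster no member was called with age, and 1 of 10, Fcer1a, passed an unadjusted p of 0.05 with edgeR and with DESeq2. Over all 3303 genes tested there, edgeR and DESeq2 called none either (0%), with 106 and 10 genes at unadjusted p under 0.05. Mcpt8 stood at 29816 CPM in young A, 45415 in young B, 29446 in aged A and 46147 in aged B, and Prss34 at 43362, 58034, 40761 and 65072 CPM. Both followed the facility, and the ages were interleaved. Their log2 fold changes were -0.026 ± 0.43 (SE) and 0.00941 ± 0.47 (SE). Hdc was at 478, 461, 498 and 469 CPM, the closest set of values among the members. Csrp3, Ms4a2, Cd200r3 and Alox5 overlapped between the ages, with log2 fold changes between -0.11 and 0.11, and Cyp11a1 was at 280, 291, 237 and 280 CPM, the 1 of 10 members with each aged value under each young value, beside 11.3% of all genes tested.

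For Fcer1a and Cpa3 each aged value lay above each young value, 2 of 10 members beside 13.9% of all genes tested. Fcer1a stood at 933 CPM in young A, 1883 in young B, 1973 in aged A and 3405 in aged B (0.94 ± 0.25 (SE), adjusted p = 0.989 by edgeR). The gap was 1.08 on the log2 scale between the HalioDX pools and 0.85 between the TGML pools. A Fcer1a UMI was in 61.5% of pMast-like cells of young A (interval 51.5 to 70.9) and 87.2% of young B (72.6 to 95.7), against 96.6% of aged A (82.2 to 99.9) and 95.8% of aged B (78.9 to 99.9). After thinning to 3000 UMIs the shares were 51.9%, 77.8%, 92.9% and 91.3%. Of the 47 pMast-like cells without Fcer1a, 40 came from young A, 5 from young B and 1 each from the aged pools. Cpa3 was at 3818, 4006, 5174 and 5482 CPM (0.42 ± 0.27 (SE)).

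**Figure D5:**
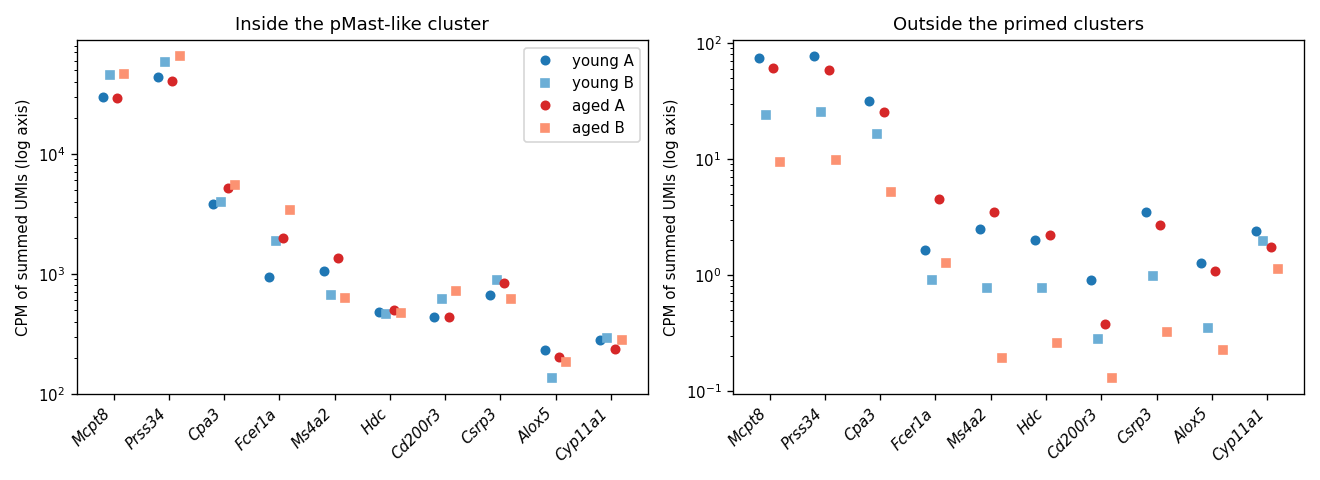
CPM of each member (log axis) in the pMast-like cluster (left) and in the cells outside the primed clusters (right), with 1 point per pool (blue young, red aged, circles HalioDX, squares TGML). On the left the ages overlap for most genes, with Fcer1a and Cpa3 higher in both aged pools. On the right Mcpt8 and Prss34 are ordered by facility, with both TGML pools lowest.

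Outside the primed clusters 9 of the 10 members had enough counts to be tested (Cd200r3, with 43 UMIs, did not), and none was called by edgeR or by DESeq2, beside 0.411% of 13384 genes called lower and 1.78% called in either direction by edgeR, and 3.87% by DESeq2. At unadjusted p under 0.05, 3 members passed with either tool, beside 2151 of the 13384 genes with edgeR and 1398 with DESeq2. Only Cyp11a1 had each aged value under each young value, beside 14.2% of all genes tested. Mcpt8 gave -0.85 ± 0.26 (SE) with adjusted p = 0.220, Prss34 -0.91 ± 0.25 (SE) with adjusted p = 0.184 and Cpa3 -1.01 ± 0.32 (SE) with adjusted p = 0.233, all by edgeR. Without aged B the Mcpt8 and Prss34 values changed sign, to 0.14 and 0.032, and without young A to 0.25 and 0.12. These fits with a pool left out had no facility block, so facility and age were no longer balanced in them. The difference within facilities was small for HalioDX and larger for TGML: the Mcpt8 difference, aged minus young on the log2(CPM + 1) scale, was -0.29 for HalioDX (74.7 against 61.1 CPM) and -1.26 for TGML (23.7 against 9.35 CPM). Fcer1a gave 0.98 ± 0.40 (SE), at 1.63, 0.910, 4.49 and 1.26 CPM, from 13 to 83 UMIs per pool.

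Whether age acted differently in pMast-like and unprimed cells was tested as a class-by-age term with the pool as a block. The unprimed class sums 9 clusters, across which Cpa3 ran from 4.62 CPM (cluster 1) to 42.9 CPM (dividing cells). Their shares also differed with age, by 6.84 points for cluster 1, -7.31 for replicating cells, -5.13 for cluster 3 and -1.77 for dividing cells. The part of this make-up in the term was not tested. For Cpa3 the age difference was higher in pMast-like cells by 1.28 ± 0.27 (SE) on the log2 scale (adjusted p = 0.00133 by edgeR), 1 of 10 members called beside 0.236% of 12279 genes called in that direction. The median of this term over all genes tested was -0.15. DESeq2 did not call Cpa3 (1.35), beside 0.163% of genes it called in either direction, and neither did edgeR without young A (0.76), without young B (1.73) or without aged B (0.27), each on the log2 scale. Cd200r3 gave 1.66 ± 0.48 (SE) with adjusted p = 0.110 by edgeR, and the other 8 members had adjusted p of 0.874 or more. Without aged A, Cpa3 gave 2.52 and 8 of 10 members were called, beside 0.304% of 12488 genes called in that direction, so the call depended on which pools were in the test.

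Which other genes shared the members' pattern was described by Pearson's r of log2(CPM + 1) over 57 sums of a cluster in a pool with at least 10 cells. These sums share libraries, depth and the clusters' make-up. Mcpt8 and Prss34 were most alike among the members (r = 0.965), and Cpa3 and Hdc next (r = 0.916). Ccr1, a chemokine receptor, was among the 3 non-members closest to 5 members (Prss34, Fcer1a, Cd200r3, Alox5 and Cyp11a1) and had 94.2% of its UMIs in pMast-like cells. Rnase12, a ribonuclease A family gene, was among the closest to Mcpt8 (r = 0.910), Prss34 and Cyp11a1, and the cytokine gene Il6 and the cadherin gene Cdh1 to Fcer1a, Ms4a2 and Cd200r3. Mcpt8 also had Man2b1 (r = 0.872) and Os9 (r = 0.851), with 9.20% and 4.20% of their UMIs in pMast-like cells. Alox15, a second arachidonate lipoxygenase, was close to Prss34 (r = 0.856) and Cyp11a1 (r = 0.906). Cpa3 and Hdc instead had Ms4a3, a marker of granulocyte-monocyte progenitors, among their closest (r = 0.899 and 0.885), with 33.5% of its UMIs in pMast-like cells. Gng12, with 12.2%, was close to both as well, and Cst7, with 23.3%, to Cpa3. Ap3s1, with 16.3%, was the closest to Hdc (r = 0.909) and among the closest to Ms4a2. Csrp3 had Slc45a3 (r = 0.859), with 14.1%, and Alox5 had the G protein-coupled receptor gene Gpr34 (r = 0.862), with 85.6%. Csrp3 also had Gm17590, with 22.1%, and Scin, with 41.2%, and Alox5 had Lilr4b, with 80%.

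The partners of these genes were less uniform. Of 72 genes in 8 lists of partners, 59 were tested over whole pools, 4 fell and 3 rose with age by edgeR. Beside them, 0.428% of all 13555 genes tested were called lower and 2.03% in either direction. Without the facility in the model edgeR called 0% of genes, so none of these partners. The lists were chosen with earlier results of these data known. In IgE receptor signalling 2 of 12 genes tested fell. Fcer1g, the γ chain shared by Fc receptors, was at 164, 173, 76.5 and 62.7 CPM in young A, young B, aged A and aged B (log2 fold change -1.33 ± 0.17 (SE), adjusted p = 0.0366 by edgeR), and only 22.1% of its UMIs were in pMast-like cells. Lat2, an adaptor of the receptor, was at 48.6, 40.4, 19.8 and 11.9 CPM (-1.58 ± 0.17 (SE), adjusted p = 0.0267 by edgeR). The other 10, among them the abundant Grb2, Lat, Btk and Plcg2, did not pass. Among the granule proteases 3 of 10 were tested and 1 rose: Cma1, the chymase of connective tissue mast cells, was at 0.0823, 0.0610, 2.16 and 2.01 CPM in the same order of pools (adjusted p = 0.0352 by edgeR), and 1.72% of its 116 UMIs were in pMast-like cells. Mcpt1, Mcpt2, Mcpt4, Mcpt9 and Tpsab1 had no UMI in any pool (named after their values were seen). Ctsg, at 204, 163, 151 and 73.6 CPM, and Gzmb did not pass.

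In the arachidonate pathway 9 of 10 genes were tested and 2 rose. Hpgds, the prostaglandin D2 synthase, was at 6.09, 6.71, 20.2 and 16.7 CPM (adjusted p = 0.0366 by edgeR), and Alox12 at 0.851, 1.34, 4.33 and 5.17 CPM (adjusted p = 0.0491 by edgeR), with 0.611% and 0.317% of their UMIs in pMast-like cells. Alox5ap, which presents arachidonate to the Alox5 enzyme, was at 279, 317, 290 and 344 CPM over whole pools with 4.58% of its UMIs in pMast-like cells. Of 12 lineage transcription factors only Cebpa fell, from 25.4 and 2.74 CPM in the young pools to 9.52 and 0.841 in the aged pools of the same facility (adjusted p = 0.0346 by edgeR). Gata2, at 190, 74.0, 253 and 115 CPM, Spi1, Ikzf2 and Runx1 did not pass. Among 10 cytokines and receptors tested Csf2rb, the common β chain for IL-3, IL-5 and GM-CSF, fell from 12.3 and 9.09 CPM to 4.57 and 2.04 CPM (adjusted p = 0.0366 by edgeR), while Kit, Crlf2, Il3ra and Ccl3 did not pass. No gene passed among the amine and proteoglycan storage genes (5 tested), the CD200 receptor and muscle LIM paralogues (4 tested) or the partners of steroid synthesis (4 tested). Fdx1 and Fdxr, the electron donors of Cyp11a1, were at 54.1 to 78.6 and 18.2 to 24.8 CPM over the pools.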

How the data were processed

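The deposited files held UMI counts per gene and cell, which the authors made with Cell Ranger 2.2.0 on the mouse build GRCm38.p4 per the labels, 1 matrix per pool. Counts were used as deposited. Barcodes were kept where the log UMI count lay within 2 SD of its pool's mean, and doublets were treated by that limit alone, with no caller. Clusters came from Seurat 5.3.0 (2000 variable genes without the members, cell cycle scores from scran 1.30.0 regressed, 15 principal components, 20 neighbours, resolution 0.5). A cluster was named X-like from at least 3 markers of a fixed list, each at least 1 on the log2 scale above other cells and seen in 10% of the cluster. At least 1 gene of the list also had to be among the cluster's 10 genes of highest log2 fold. Of the lists that passed, the one with the most markers met gave the name. The pMast list held the 10 members. UMIs were summed per pool and class and tested with edgeR 4.0.16 (quasi-likelihood, TMM, threshold 0.05 on Benjamini-Hochberg adjusted p over all genes tested) in R 4.3.3, with facility as a block, and DESeq2 1.42.0 was an alternative. The SE printed beside an edgeR log2 fold change is its size divided by the square root of the quasi-likelihood F statistic. Pools of the same letter shared a batch, and their deviations from the age means correlated across 13555 genes (r = 0.576). Tests were checked on simulated data that had no facility effect, so this check does not cover data with one. Thinning to 3000 UMIs left out 0, 50, 176 and 4 cells of young A, young B, aged A and aged B. Other alternatives were the normalization, the filters on low counts and on cells, the clustering and each pool left out. All members were named, with the 3 genes most like each, and of the partner lists the genes called and up to 4 of highest CPM. The members and lists were chosen with earlier results of these data known. Each pool is 1 library of mixed animals, so p-values do not measure the spread between animals. With facility as a block, they measure the spread between pools left after facility, estimated partly from other genes.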

Additional observations from a re-analysis of the deposited data

Results flagged for a closer look

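The age difference of Cpa3 was 1.28 higher on the log2 scale in pMast-like cells than in cells outside the primed clusters, which the test of the difference itself called (adjusted p = 0.00133 by edgeR, 4 pools). Inside the pMast-like cluster Cpa3 stood at 3818 and 4006 CPM in young A and young B and at 5174 and 5482 CPM in aged A and aged B. Outside, it stood at 31.4 and 16.4 CPM and at 25.1 and 5.22 CPM. Aged minus young, the difference was positive inside and negative outside at both facilities. On the log2(CPM + 1) scale it was 0.44 at HalioDX and 0.45 at TGML inside, and -0.31 and -1.49 outside. In neither class alone was Cpa3 called with age (adjusted p = 0.233 outside by edgeR). Whether the unprimed Cpa3 UMIs are expression was not tested. The cluster make-up of the unprimed cells also differed with age, and its part in the called difference was not tested. DESeq2 did not call it, nor did edgeR without young A, young B or aged B.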

How the results depend on the processing

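Over whole pools each member kept its direction under each alternative run. With 1 member called, the count of members called moved to 8 with DESeq2, 9 with no filter on low counts, 2 with all deposited barcodes, 0 with cells thinned to 3000 UMIs, 0 without the replicate block (facility), and 0 to 0 when each pool was left out in turn. The genes called, 275, moved to 543 with DESeq2, 774 with no filter and 0 without the replicate block, and ran from 0 to 287 when each pool was left out. Inside and outside the pMast-like cluster the count of members called stayed at 0 under each alternative. No share of all genes was set beside the 2 members called with all deposited barcodes. The same holds for the 2 called without the Prg2 cells in the difference between the classes, given next. The count for the difference between the classes (1) was 0 with DESeq2, 2 without cells with 10 or more Prg2 UMIs, and changed with each pool left out, and the last 3 settings were chosen after seeing the data. The median percent of a member's UMIs in the pMast-like cluster, 73.8%, was 86.0% at resolution 0.3, 87.4% with the members kept in the clustering and 83.5% without integration, where that cluster also held neutrophil-type cells. Some log2 fold changes that no test called changed sign, and the cause was not tested. With the setting no filter on low counts, inside the pMast-like cluster, the value was -0.11 for Prss34, -0.00575 for Ms4a2, -0.11 for Hdc, -0.0453 for Cd200r3 and -0.0569 for Alox5. With the setting DESeq2, for the difference between the classes, the value was -0.0624 for Fcer1a. With the setting without cells with 10 or more Prg2 UMIs, inside the pMast-like cluster, the value was -0.0342 for Hdc. With the setting resolution 0.3, inside the pMast-like cluster, the value was -0.42 for Prss34, -0.12 for Ms4a2, -0.16 for Hdc, -0.36 for Cd200r3 and -0.36 for Alox5. With the setting resolution 0.3, for the difference between the classes, the value was -0.22 for Fcer1a and -0.0313 for Ms4a2. With the setting resolution 0.8, for the difference between the classes, the value was -0.0852 for Fcer1a. With the setting members kept in the clustering, inside the pMast-like cluster, the value was -0.58 for Prss34, -0.0294 for Cpa3, -0.31 for Ms4a2, -0.32 for Hdc, -0.52 for Cd200r3 and -0.52 for Alox5. With the setting members kept in the clustering, for the difference between the classes, the value was -0.34 for Fcer1a, -0.20 for Ms4a2, -0.0449 for Alox5 and -0.0781 for Cyp11a1. With the setting clustering without integration, inside the pMast-like cluster, the value was -0.66 for Prss34, -0.13 for Cpa3, -0.50 for Ms4a2, -0.46 for Hdc, -0.61 for Cd200r3 and -0.51 for Alox5. With each pool left out in turn, inside the pMast-like cluster, values ran from -0.47 to 0.39 for Prss34, -0.0581 to 0.0312 for Hdc, -0.43 to 0.48 for Cd200r3, -0.51 to 0.35 for Mcpt8, -0.42 to 0.52 for Ms4a2, -0.35 to 0.13 for Csrp3, -0.27 to 0.44 for Alox5 and -0.41 to 0.00495 for Cyp11a1. With each pool left out in turn, outside the primed clusters, values ran from -2.23 to 0.25 for Mcpt8, -2.23 to 0.12 for Prss34, -2.91 to 0.90 for Ms4a2, -2.28 to 0.46 for Hdc, -2.64 to 0.28 for Csrp3 and -1.73 to 0.57 for Alox5. With each pool left out in turn, for the difference between the classes, values ran from -0.84 to 2.38 for Mcpt8, -0.70 to 2.44 for Prss34, -1.12 to 1.45 for Fcer1a, -0.41 to 2.49 for Ms4a2, -0.50 to 2.38 for Hdc, -0.71 to 2.52 for Csrp3 and -0.34 to 1.72 for Alox5. The share of cells with a Fcer1a UMI, aged minus young, was -0.0934 points after thinning, against 0.174 points. With 1 pool in an arm, that pool was assumed to vary like the others. Fits by age with a pool left out had no facility block, so facility and age were no longer balanced in them. The difference between the classes kept the pool as a block, with no term for facility by class. Depth limits Cd200r3 outside the primed clusters, where it had 43 UMIs.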
